A study of Mus musculus with 6 samples.

Results

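Thyroid hormone handling and receptor genes are 7 of the 39179 genes counted in the cochlear and vestibular sensory epithelia of the newborn mouse. They were chosen by name for their role, and each symbol was found once among the Ensembl identifiers of the count tables. The genes are Slc16a10 and Slco1c1 (transporters), Crym (a binding protein), Dio2 and Dio3 (deiodinases), and Thra and Thrb (receptors).

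RNA was sequenced from wild-type C57Bl/6J mice at postnatal day 0, with both sexes pooled and no treatment in either group. The cochlea group and the vestibule group each hold 3 libraries, which were built with a strand-preserving mRNA kit from 450 ng of total RNA drawn from 20 pooled ears. The study's methods describe both epithelia as dissected from the same set of inner ears. Neither they nor the labels say whether the 3 libraries of a tissue came from separate pools, so the p-values measure the spread between libraries, which may be technical. Gene counts summed to between 24464483 and 29225105 per cochlear library and between 25476572 and 33664793 per vestibular library. The hair cell genes Myo7a and Pou4f3 were detected in all 6 libraries, with at least 981 and 1064 counts.

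Thyroid hormone reaches cells mainly as thyroxine, a prohormone that membrane transporters carry across the cell surface. Inside the cell, type 2 deiodinase (Dio2) converts thyroxine to the active hormone triiodothyronine, type 3 deiodinase (Dio3) inactivates both, and mu-crystallin (Crym) binds triiodothyronine in the cytosol. The receptors encoded by Thra and Thrb sit on DNA, usually paired with a retinoid X receptor, and switch between repressing and activating their targets when the hormone binds. In the inner ear the hormone is known for its role in the maturation of the organ of Corti and the tectorial membrane before hearing begins, and mice without Thrb are deaf.

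Thrb has separate promoters for different receptor isoforms, and counts per gene cannot tell them apart. The sequences upstream of 2 RefSeq start sites of Thrb are shown because the gene differed strongly between the tissues, that of Slc16a10 because its counts followed the same direction, and that of Dio2 because it went the other way. Each is the window before the RefSeq start in GRCm38.p6, read 5′ to 3′ on the gene's strand, cut where an exon of the gene's GENCODE vM21 annotation begins, with matches to the searched motifs in capitals. They lie at chr14:17660710-17660891 (plus strand, 182 bases) and chr14:17981394-17981528 (plus strand, 135 bases) for Thrb, at chr10:40142259-40142504 (minus strand, 246 bases) for Slc16a10, and at chr12:90739039-90739288 (minus strand, 250 bases) for Dio2.
Thrb, upstream start: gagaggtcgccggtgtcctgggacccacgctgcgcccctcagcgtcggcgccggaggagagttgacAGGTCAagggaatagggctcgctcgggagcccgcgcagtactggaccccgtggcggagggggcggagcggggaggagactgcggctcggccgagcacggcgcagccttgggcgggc
Thrb, downstream start: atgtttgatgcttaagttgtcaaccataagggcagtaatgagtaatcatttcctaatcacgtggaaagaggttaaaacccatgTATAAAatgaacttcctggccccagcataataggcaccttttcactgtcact
Slc16a10: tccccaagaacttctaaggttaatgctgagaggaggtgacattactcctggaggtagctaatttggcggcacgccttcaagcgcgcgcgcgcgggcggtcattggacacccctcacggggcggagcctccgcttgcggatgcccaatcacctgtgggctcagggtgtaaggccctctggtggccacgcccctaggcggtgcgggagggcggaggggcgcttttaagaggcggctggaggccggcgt
Dio2: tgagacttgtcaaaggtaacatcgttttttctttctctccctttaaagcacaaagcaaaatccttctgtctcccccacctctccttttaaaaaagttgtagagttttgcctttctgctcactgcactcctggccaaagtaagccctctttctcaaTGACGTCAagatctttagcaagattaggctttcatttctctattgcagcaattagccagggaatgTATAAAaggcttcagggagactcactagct

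Both strands of the 250 bases before each start were searched for AGGTCA, the half-site that thyroid hormone receptors and several other nuclear receptors recognise, for TGACGTCA, the cyclic AMP response element, and for the TATA box letters TATAAA. The upstream Thrb window held AGGTCA 184 bases before the start, and the downstream window held TATAAA 167 bases before the start. The Dio2 window held TGACGTCA 95 bases and TATAAA 30 bases before the start, while the Slc16a10 window held none of these letters. Among 32851 promoter windows of the same length, 14.02% held AGGTCA, 1.546% held TGACGTCA and 12.37% held TATAAA. The full upstream Thrb window was rich in CpG dinucleotides, with 30 against a median of 6 over all windows, and the downstream window had 2. A RefSeq promoter was given for 5 of the 7 genes, and the matches describe the letters and not binding.

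Of the 7 genes, 6 passed the filter of at least 1 CPM in 3 libraries (the count scaled to the library's total on genes, where 1 CPM stands for 24.5 to 33.7 counts), and those 6 passed it in all 6 libraries of both tissues. Crym, Thrb, Slc16a10 and Slco1c1 were higher in the cochlea, Dio2 was higher in the vestibule, and Thra was not called different. Calls were made with edgeR's quasi-likelihood test at a false discovery rate of 0.05 over 14723 genes, of which 27.4% were called, 11.6% as higher in the cochlea and 15.8% as higher in the vestibule. The 5 calls among 6 genes tested are a larger share than that background, but the genes were chosen with results of these data known. In bulk tissue, fewer cells of a type and less RNA per cell cannot be told apart.

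**Figure D1:**
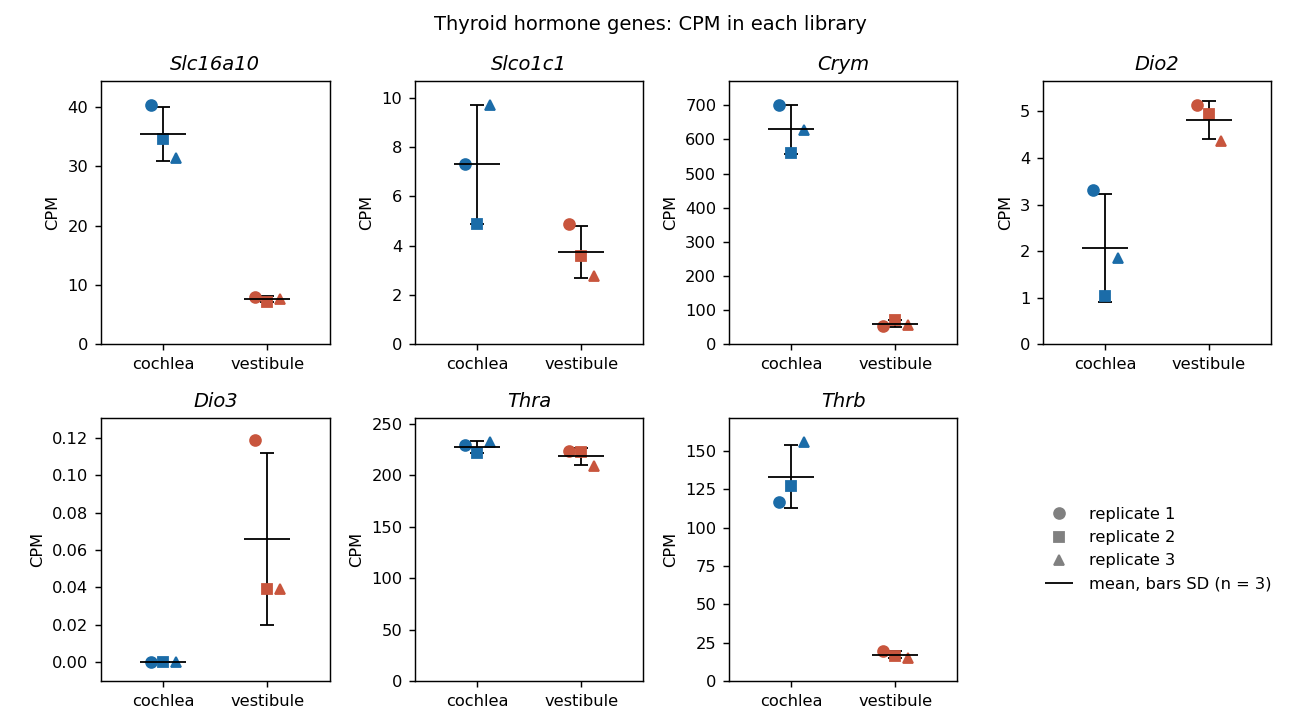
CPM of the 7 genes on the vertical axes (linear, each panel with its own scale) in each cochlear (blue) and vestibular (red) library, with the mean as a line and the SD as bars, n = 3. Crym, Thrb and Slc16a10 separate widely, Slco1c1 comes close to touching at 4.90 and 4.87 CPM, Thra overlaps, and Dio3 stays at or below 0.119 CPM.

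Slc16a10 encodes a transporter of aromatic amino acids that also carries thyroid hormones (ENSMUSG00000019838, chromosome 10, 40033532 to 40142258 in GRCm38, minus strand). It was counted 987, 997 and 917 times in the cochlea, which gave 40.34, 34.61 and 31.38 CPM. In the vestibule 270, 183 and 195 counts gave 8.02, 7.126 and 7.654 CPM. The lowest cochlear library lay far above the highest vestibular library. The gene was 5.06-fold higher in the cochlea (log2 fold change, vestibule minus cochlea, of -2.34 ± 0.155 SE, n = 3 per tissue, edgeR adjusted p = 1.62e-05). Over 15 alternative settings the adjusted p did not exceed 0.000835.

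Slco1c1 encodes an organic anion transporter that carries thyroxine and is best known from brain endothelium (ENSMUSG00000030235, chromosome 6, 141524368 to 141570177, plus strand). Its 179, 141 and 284 cochlear counts were 7.317, 4.895 and 9.718 CPM, and its 164, 92 and 71 vestibular counts were 4.872, 3.582 and 2.787 CPM. The groups did not overlap, but the lowest cochlear library and the highest vestibular library all but met. The gene was 2.11-fold higher in the cochlea (log2 fold change -1.08 ± 0.284 SE, edgeR adjusted p = 0.0222). The call was lost in 6 of 15 alternatives, among them the fits without cochlea replicate 1 (adjusted p = 0.0536), vestibule replicate 2 (0.0917) or vestibule replicate 3 (0.0671).

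Endothelial markers were set beside Slco1c1, and 15.8% of all genes tested were higher in the vestibule. Of 6 endothelial markers 5 were higher in the vestibule and 1 was not called, and their summed level was 73.5 to 126 CPM in the cochlea and 374 to 538 CPM in the vestibule. None of the 6 was at 0 in all libraries, and their part in the Slco1c1 values was not tested.

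Other transporters of the hormone were compared in the same way. Of 11 listed, 7 were tested, 4 were higher in the vestibule and 3 were not called, beside 15.8% of all genes higher in the vestibule and 11.6% higher in the cochlea. All 7 log2 fold changes were above 0, also in each of the 15 alternatives, and the median log2 fold change was 0.64, against 0.0048 over all genes tested.

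Slc7a8, a light chain of the system L amino acid transporters, had 37.07, 34.13 and 42.36 CPM in the cochlea and 120.4, 118.1 and 115.4 CPM in the vestibule, and was 2.87-fold higher there (adjusted p = 4.4e-05). Slc3a2, the heavy chain it needs, was 1.56-fold higher in the vestibule (adjusted p = 0.00624). Slco1a4, an organic anion transporter of brain capillaries, had 2.82, 0.8332 and 2.464 CPM in the cochlea against 22.58, 20.25 and 19.08 CPM in the vestibule. It needed the vestibular libraries, where it was higher, to pass the filter, so its call is in the count above but no p is given. Slco2b1 was 3.30-fold higher in the vestibule (adjusted p = 0.000356). Slco1a4 and Slco2b1 moved in the direction of the endothelial markers and of other lists. All 5 macrophage markers (60.55 to 77.58 CPM summed in the cochlea, 240.7 to 245.0 in the vestibule) and all 5 melanocyte markers (31.03 to 59.99 against 271.9 to 336.3 CPM) were higher in the vestibule, as were 4 of 5 dark cell and stria markers (497.5 to 639.5 against 849.8 to 969.9 CPM) and 3 of 4 pericyte markers (221.6 to 292.0 against 326.8 to 420.1 CPM). Of the melanocyte markers, Mlana and Tyrp1 passed the filter through the vestibular libraries alone, and Aif1, of the macrophage markers, needed them to pass. Over all genes 15.8% were higher in the vestibule. The part of these cells in the transporters' values was not tested. Slc7a5 and Slco3a1 had log2 fold changes of 0.37 and 0.19 and were not called.

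Crym showed the largest fold difference of the 6 genes tested (ENSMUSG00000030905, chromosome 7, 120186380 to 120202111, minus strand). Variants of the human gene are known from hereditary deafness. It was counted 17154, 16105 and 18369 times in the cochlea (701.2, 559.1 and 628.5 CPM) and 1752, 1834 and 1468 times in the vestibule (52.04, 71.41 and 57.62 CPM). Every cochlear library exceeded every vestibular library by a wide margin. The gene was 11.3-fold higher in the cochlea (log2 fold change -3.50 ± 0.175 SE, edgeR adjusted p = 5.56e-06), rank 80 of 14723 genes counted from the largest cochlear excess. Without each library in turn the log2 fold change stayed between -3.61 and -3.36.

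In RPKM, which scales counts to gene length and library size and was taken from the authors' deposited matrix, Crym stood at 186.0 ± 20.98 RPKM (SD, n = 3) in the cochlea and 17.84 ± 2.946 RPKM in the vestibule. By mean RPKM it held rank 222 of 14722 genes in the cochlea and rank 3449 in the vestibule. Among plasma carriers, Ttr (transthyretin) did not separate the tissues, with 44.68, 50.06 and 110.2 CPM in the cochlea and 112.8, 66.31 and 41.8 CPM in the vestibule. Alb and Serpina7 had at most 8 counts in any library.

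Dio2 was a low gene in both tissues (ENSMUSG00000007682, chromosome 12, 90724552 to 90738438, minus strand). In the cochlea the enzyme is known mainly from the connective tissue around the sensory epithelium. Its 81, 30 and 54 cochlear counts were 3.311, 1.042 and 1.848 CPM, and its 173, 127 and 111 vestibular counts were 5.139, 4.945 and 4.357 CPM. The vestibular libraries lay close together above all cochlear libraries, which varied widely (coefficient of variation 55.7% against 8.46%).

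The difference was 2.17-fold (log2 fold change 1.12 ± 0.357 SE, edgeR adjusted p = 0.0474), just inside the threshold. The call was lost in 7 of 15 alternatives, including the fits without cochlea replicate 2 (log2 fold change 0.81, adjusted p = 0.115), cochlea replicate 3 (adjusted p = 0.0855) or vestibule replicates 1, 2 or 3 (adjusted p = 0.108, 0.118 and 0.0727). Of 8 mesenchyme and fibrocyte markers, 3 were higher in the vestibule, 2 in the cochlea and 3 were not called, and their summed level was 5106 to 5866 CPM in the cochlea and 7699 to 8885 CPM in the vestibule. Over all genes 15.8% were higher in the vestibule and 11.6% in the cochlea. The part of these markers in the Dio2 values was not tested. An annotated noncoding gene, Gm26512, overlaps 100 exon bases of Dio2 on the opposite strand (1.72% of its exons), and had at most 4 counts.

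Dio3 was close to undetected (ENSMUSG00000075707, chromosome 12, 110279068 to 110281097, plus strand, a single exon of 2030 bases). It had 0 counts in the 3 cochlear libraries, which by a floor of 3 counts allows a level of up to 0.0364 CPM over the group. The vestibular libraries had 4, 1 and 1 counts, a pooled level of 0.0707 CPM with an exact 95% Poisson interval of 0.0260 to 0.154 CPM. The floor and the interval cover counting error only. The gene was below the filter and was tested only in the fit without it, where it was not called (edgeR adjusted p = 0.131).

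Dio3 lies in an imprinted domain of chromosome 12, and the genes around it gave mixed values. Dlk1 and Rtl1, protein-coding genes of that domain, were listed at 0 in all 6 libraries, and the noncoding gene Rian had 1 count in all. The noncoding Meg3 had 110, 168 and 834 cochlear counts and 3550, 1424 and 498 vestibular counts, with overlapping groups (log2 fold change 2.08, adjusted p = 0.0711). It was called without cochlea replicate 3 (log2 fold change 3.37, adjusted p = 0.00428) or vestibule replicate 3 (2.50, adjusted p = 0.0345), and in 4 of 15 alternatives in all. The lowest value was 1.46, without vestibule replicate 1 (adjusted p = 0.229). Mirg had 13, 4 and 29 cochlear counts and 106, 59 and 38 vestibular counts, which did not overlap, and it passed the filter through the vestibular libraries alone, so no p is given. Whether the annotation used for counting set the zeros of Dlk1, Rtl1 and Dio3 was not tested.

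The balance of activating and inactivating deiodinase was taken as a ratio within each library. The log2 ratio of Dio2 to Dio3 counts, with 0.5 added to each, was 6.683 ± 0.713 (SD, n = 3) for the cochlear libraries and 5.965 ± 0.61 for the vestibular ones, with overlapping groups (exact permutation test, two-sided, p = 0.3). With so few Dio3 counts the ratio rests on the number added, and the difference of -0.72 shrank to -0.06 with 1 added.

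Of 9 other genes of hormone metabolism, 6 were tested and 1 was called, beside 27.4% of all genes. It was Sult1a1, a sulfotransferase that acts on phenols and iodothyronines, at 11.4, 9.061 and 10.3 CPM in the cochlea and 22.61, 23.79 and 35.52 CPM in the vestibule (2.48-fold, adjusted p = 0.00261). Secisbp2, Eefsec, Sephs2, Sepsecs and Pstk, which serve the insertion of selenocysteine that deiodinases need, were not called, with log2 fold changes between -0.40 and 0.46. Dio1, the deiodinase of liver and kidney, had no cochlear count and 2, 3 and 0 vestibular counts.

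Thra was abundant and nearly level between the tissues (ENSMUSG00000058756, chromosome 11, 98740638 to 98769006, plus strand). It had 5612, 6381 and 6806 cochlear counts (229.4, 221.5 and 232.9 CPM) and 7542, 5714 and 5322 vestibular counts (224.0, 222.5 and 208.9 CPM). In CPM the groups overlapped. With the TMM factors of the fit they did not, at 234.6, 240.5 and 237.4 CPM in the cochlea against 206.2, 211.3 and 211.1 CPM in the vestibule. The coefficients of variation of the CPM, 2.55% over the cochlear and 3.81% over the vestibular libraries, were the lowest of the 6 genes tested. The log2 fold change was -0.18 ± 0.110 SE (edgeR adjusted p = 0.261), and it lay between -0.20 and -0.06 over the alternatives, the latter with library sizes alone.

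Thra shares 263 exon bases (5.70% of its exons) with Nr1d1 on the opposite strand. Nr1d1, a clock-controlled nuclear receptor, had 203, 327 and 382 cochlear counts and 521, 549 and 487 vestibular counts (log2 fold change 0.66, adjusted p = 0.0547, and called in 6 of 15 alternatives, with adjusted p from 0.0284 to 0.244 over all 15). Nr1d1 was called, among others, without cochlea replicate 3 (adjusted p = 0.0373) or vestibule replicate 1 (0.0366). The kit marks strand, but the strand setting of the counting was not given in the sources used here. Thra encodes a receptor and a form that does not bind the hormone, which counts per gene do not separate.

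Thrb, on chromosome 14 (ENSMUSG00000021779, 17660261 to 18038090, plus strand), was far higher in the cochlea. Counts of 2851, 3666 and 4565 in the cochlea were 116.5, 127.3 and 156.2 CPM, and counts of 660, 423 and 387 in the vestibule were 19.61, 16.47 and 15.19 CPM. The groups stood well apart. The gene was 8.49-fold higher in the cochlea (log2 fold change -3.09 ± 0.157 SE, edgeR adjusted p = 5.56e-06), at rank 112 of 14723 from the largest cochlear excess, and the log2 fold change stayed between -3.19 and -2.96 over the alternatives.

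Between the receptors, Thrb was called and Thra was not, and their shares were compared in each library. Per gene length, Thra stood at 49.48 ± 1.27 RPKM in the cochlea and 47.44 ± 1.817 RPKM in the vestibule, and Thrb at 20.38 ± 3.139 and 2.613 ± 0.3476 RPKM. Thrb made up 26.34, 28.8 and 32.07% of the summed receptor RPKM in the cochlear libraries and 5.805, 4.955 and 4.872% in the vestibular libraries. The sum of both receptors was 69.86 ± 3.969 RPKM in the cochlea and 50.06 ± 2.102 RPKM in the vestibule. Neither the share nor the sum overlapped between the tissues (exact permutation test, two-sided, p = 0.1 for each, the smallest that 3 against 3 libraries allow).

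A ratio within a library does not depend on the scaling between libraries. Not corrected for gene length, Thra counts were 1.968, 1.741 and 1.491 times Thrb counts in the cochlea and 11.43, 13.51 and 13.75 times in the vestibule. On the log2 scale the ratio was 0.784 ± 0.201 (SD, n = 3) and 3.682 ± 0.147, a difference of 2.90 (exact permutation test, two-sided, p = 0.1, the smallest possible). The difference was 2.79 to 3.00 without each library in turn.

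**Figure D2:**
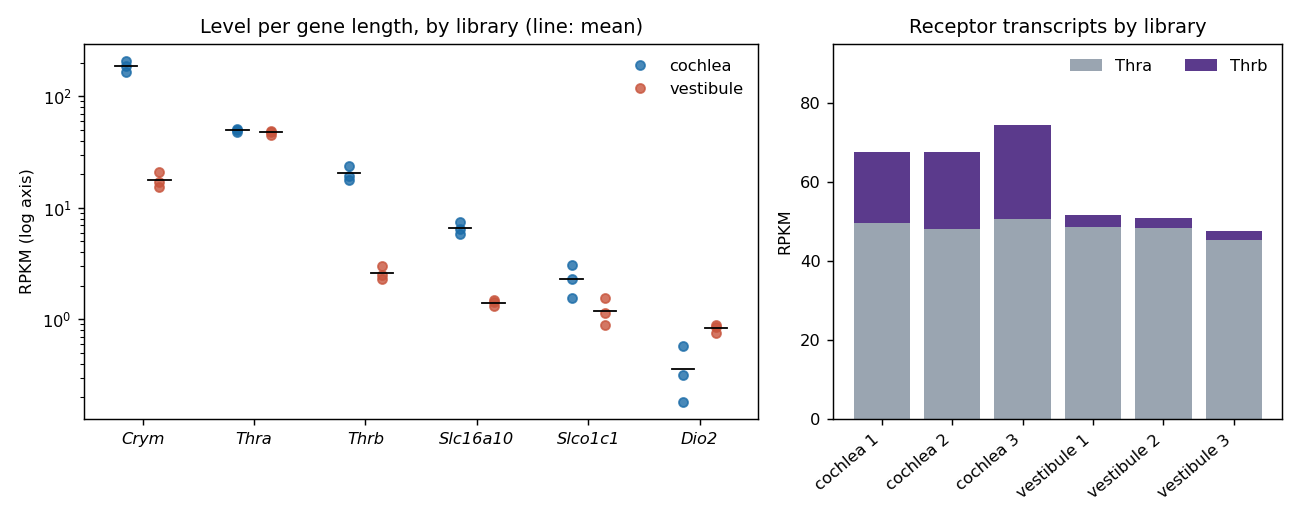
Left, RPKM of the 6 genes in the deposited matrix on a log axis, a point for each cochlear (blue) or vestibular (red) library and a line at the mean of 3. Right, Thra (grey) and Thrb (purple) RPKM stacked for each library on a linear axis from 0. Thra lies between 45.35 and 50.57 RPKM in all libraries, while Thrb falls from 20.38 RPKM on average in the cochlea to 2.613 RPKM in the vestibule.

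The order of the levels per gene length in the cochlea was Crym, Thra, Thrb, Slc16a10 at 6.583 ± 0.8424 RPKM, Slco1c1 at 2.307 ± 0.7604 RPKM and Dio2 at 0.3576 ± 0.1982 RPKM, and no neighbours in that order overlapped. In the vestibule Thra stood above Crym, followed by Thrb, Slc16a10 at 1.413 ± 0.08358 RPKM, Slco1c1 at 1.184 ± 0.3319 RPKM and Dio2 at 0.8312 ± 0.07033 RPKM. There the ranges of Slc16a10 and Slco1c1 overlapped, as did those of Slco1c1 and Dio2. Crym and Thra changed places between the tissues. The order rests on the gene lengths behind the deposited matrix, and Slco1c1 is longer in GENCODE vM21, at 5186 exon bases.

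Markers of several cell types were set beside Crym, Thrb and Slc16a10. Of 7 supporting cell markers, 6 were higher in the cochlea and 1 was not called, and their summed level was 658 to 832 CPM in the cochlea and 367 to 397 CPM in the vestibule. Hes5, among the 6, passed the filter through the cochlear libraries alone. Of 5 markers of the greater epithelial ridge and inner sulcus, 3 were higher in the cochlea, 1 in the vestibule and 1 was not called (4185 to 5459 CPM against 2687 to 3225 CPM). Of 6 neuronal markers, 3 were higher in the cochlea and 3 were not called. Their sums overlapped, from 154 to 504 CPM in the cochlea and from 104 to 312 CPM in the vestibule. Prph, among the 3 that were higher, needed the cochlear libraries to pass the filter. No marker of these lists was at 0 in all libraries, and their part in the values of the 3 genes was not tested.

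Among 15 partners of the receptors, all tested, the retinoid X receptor gene Rxrg stood apart. It had 22.56, 18.37 and 17.55 CPM in the cochlea and 3.268, 3.193 and 3.219 CPM in the vestibule, a 6.55-fold difference (log2 fold change -2.71 ± 0.177 SE, edgeR adjusted p = 1.49e-05). Rxra and Rxrb, its widely expressed relatives, had log2 fold changes of -0.36 (adjusted p = 0.0942) and 0.12 (adjusted p = 0.493) and were not called.

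Of the corepressors and coactivators, 2 were called, beside 27.4% of all genes. Tbl1xr1, a subunit of the corepressor complex, was 1.44-fold higher in the cochlea (adjusted p = 0.0405), and Gps2, of the same complex, was 1.42-fold higher in the vestibule (adjusted p = 0.0268). The call of Tbl1xr1 was lost without cochlea replicate 2 or 3 or any single vestibular library (adjusted p up to 0.141 over the alternatives), and that of Gps2 without cochlea replicate 1 or 2 or vestibule replicate 1 or 2 (up to 0.114). The other coregulators listed, among them Ncor1, Hdac3, Ncoa1, Ncoa3 and Ep300, were not called, with fold differences of 1.49 for Ncoa1 (higher in the cochlea) and 1.51 for Ncoa3 (higher in the vestibule). DESeq2 called Ncoa1 (adjusted p = 0.0317) and Ncoa3 (0.0469), as did the fit without the filter. Ncoa1 was also called without cochlea replicate 1 (0.0311) and without that library and vestibule replicate 3 together (0.0478), and Ncoa3 without cochlea replicate 3 (0.0186) or vestibule replicate 3 (0.0316). Crebbp varied strongly within the cochlea, at 12.1, 53.15 and 83.08 CPM.

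Genes known to respond to the hormone in the cochlea, brain or liver were mixed. Of 11 listed, 9 were tested, with a median log2 fold change of 0.03. Of the 9, 2 were higher in the cochlea and 2 in the vestibule, beside 11.6% and 15.8% of all genes. The other 5 were not called. Tecta, which encodes alpha-tectorin of the tectorial membrane, had 7010, 8766 and 9689 CPM in the cochlea and 522.2, 555.5 and 411.9 CPM in the vestibule (18.6-fold, adjusted p = 8.11e-06). Slc26a5, the motor protein prestin of outer hair cells, was low, with 38, 48 and 97 cochlear counts and 5, 0 and 2 vestibular counts. It passed the filter through the cochlear libraries alone, where it was higher, so its call is counted above but its p is not given, and it could be fitted in 11 of the 15 alternatives.

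Kcnma1, a potassium channel of hair cells, was 2.80-fold higher in the vestibule (adjusted p = 0.00046). Of 7 hair cell markers, 3 were higher in the vestibule, 1 in the cochlea and 3 were not called, beside 15.8% and 11.6% of all genes. Their summed level was 610.8 to 745.7 CPM in the cochlea and 918.0 to 1198 CPM in the vestibule. Much of that difference was Otof, at 53.55, 101.8 and 95.6 CPM in the cochlea and 530.5, 331.9 and 306.9 CPM in the vestibule. The part of these markers in the Kcnma1 values was not tested. Sema7a, a semaphorin, was 1.84-fold higher in the vestibule (adjusted p = 0.0386), a call lost without cochlea replicate 2 or 3 or vestibule replicate 1 or 3 (adjusted p up to 0.144 over the alternatives). Klf9, a direct target of the receptors in many tissues, had 16.72, 28.78 and 18.96 CPM in the cochlea and 30.89, 35.43 and 53.3 CPM in the vestibule, with groups that did not overlap, and was not called (log2 fold change 0.78 ± 0.291 SE, adjusted p = 0.0824). It was called in 4 of 15 alternatives, with library sizes alone (adjusted p = 0.0398), in DESeq2 (0.0328), without the filter (0.0357) and without cochlea replicate 2 (0.0405). Without vestibule replicate 3 its log2 fold change fell to 0.48 (adjusted p = 0.213), and without that library and cochlea replicate 1 to 0.31 (adjusted p = 0.434). Hr, another direct target, had a log2 fold change of 0.03 ± 0.263 SE (adjusted p = 0.955). Kcnj10 and Nrgn were not called either. Over the 5 lists of other thyroid hormone genes, 12 of 38 tested were called, 4 higher in the cochlea and 8 in the vestibule, a share close to the 27.4% called over all genes.

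**Figure D3:**
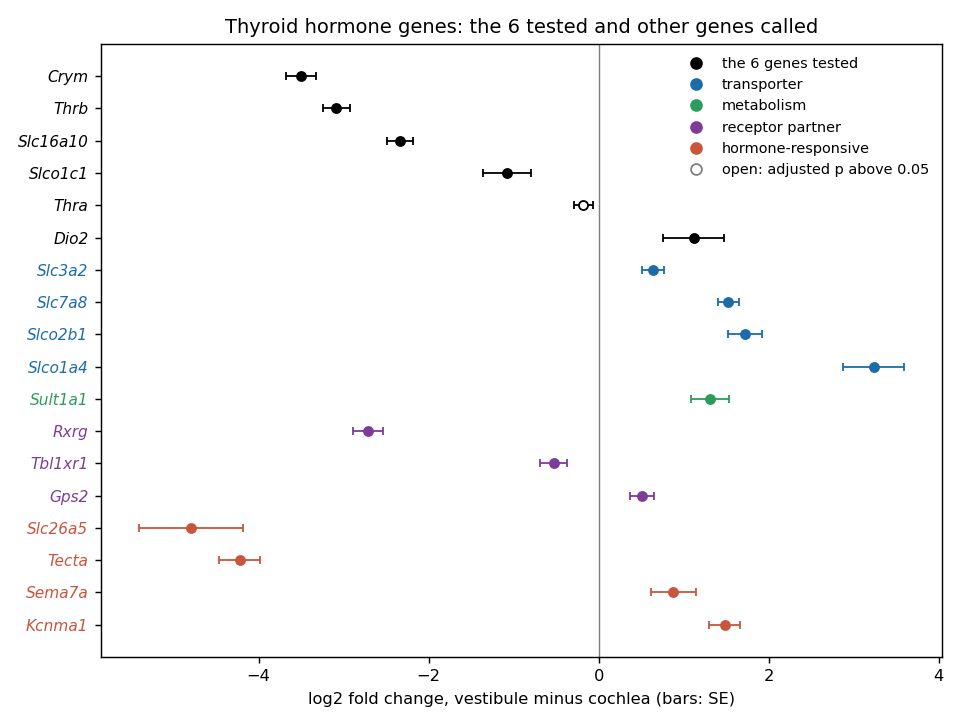
Log2 fold change (vestibule minus cochlea, horizontal axis) with its SE for the 6 tested genes (black) and the 12 genes of the 5 other lists that passed an adjusted p of 0.05, coloured by role. The other 26 tested genes of those lists are not drawn, filled points passed the threshold, and the 4 transporters lie right of 0, from 0.64 to 3.24, while Slc16a10 and Slco1c1 lie left of it.

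The genes most like each of the 6 tested genes were ranked by Pearson's r of TMM-scaled log2 CPM over the 6 libraries, which fall into 2 tissues, so any gene with the same tissue difference and little noise ranks high. With r above 0.95 there were 700 genes for Crym, 721 for Thrb, 756 for Slc16a10, 676 for Thra, 87 for Dio2 and 81 for Slco1c1. The gene most like Slc16a10 was Rxrg (r = 0.9991), followed by Minar1 and Iigp1. Crym was most like Upp1 (r = 0.9987), then Rtn4r and Prss8. Upp1, a uridine phosphorylase, averaged 19.46 CPM in the cochlea and 0.9053 CPM in the vestibule. Upp1 and Minar1 needed the cochlear libraries, where they were higher, to pass the filter.

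Thrb was most like Mctp1 (r = 0.9988), then Prss3 and Notum, a secreted inhibitor of Wnt ligands, at 21.95 and 3.115 CPM on average. Prss3 had no count in the vestibule and passed the filter through the cochlear libraries alone. Isl1, a transcription factor gene, and Mief1 were among the 3 genes most like Thra (r = 0.9974 and 0.9972). Isl1 averaged 117.1 CPM in the cochlea and 60.7 CPM in the vestibule. Dio2 was most like 4732491K20Rik, Prr16 and Mpp1, and Slco1c1 was most like Grin3a, Tmprss2 and BC037032, and of these 6 genes only BC037032 was called between the tissues (adjusted p = 0.0276).

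**Figure D4:**
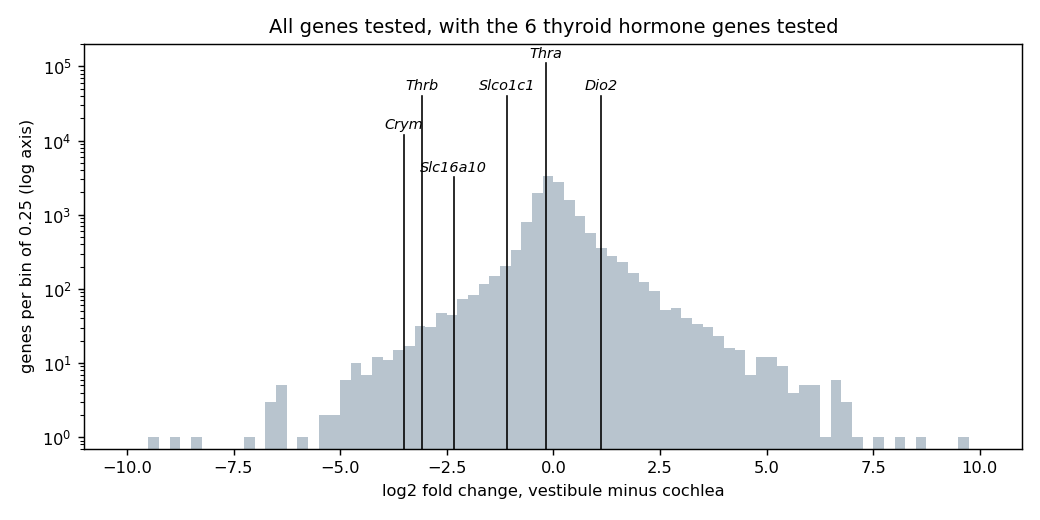
Number of genes (log axis) in bins of log2 fold change, vestibule minus cochlea, for all 14723 genes tested, with vertical lines at the 6 thyroid hormone genes tested. Crym at -3.50 and Thrb at -3.09 lie in the far cochlear tail at ranks 80 and 112, Slc16a10 at rank 235, and Thra at -0.18 near the centre.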

How the data were processed

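Poly(A) RNA-seq of 3 cochlear and 3 vestibular libraries was analysed. The authors aligned reads to GRCm38 with TopHat2 2.1.0 and deposited raw counts per Ensembl gene from HTSeq 0.5.4p5, and the submitters' processing notes also name SAMtools 0.1.18 and edgeR 3.4.2. The authors further deposited log2 RPKM values of 14722 genes, used here for levels per gene length and for the receptors' shares and sum. That matrix differed from the log2 CPM of the counts by a constant per gene, within 0.00231 for 9941 genes with at least 200 counts. Summary lines held 18.5 to 20.6% of each count file and were left out of library sizes.

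Genes with at least 1 CPM in 3 libraries (14723) were tested in edgeR 4.0.16 (R 4.3.3) with TMM, a quasi-likelihood fit on tissue, and Benjamini-Hochberg adjustment at 0.05. The script was tested on simulated data. SEs are the log2 fold change over the root of F. Alternatives were DESeq2 1.42.0, limma-voom (limma 3.58.1), other scalings and filters, a replicate block and leaving out libraries; 1 pair was left out as an alternative chosen after seeing the data. Ratios and shares used exact permutation tests.

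The 7 genes and all lists were chosen with earlier results of these data known; all 7 genes are named, any gene of the lists may be named, and the 3 genes most alike by Pearson's r. Symbols were matched for 134 of 135 listed genes. Gene coordinates are from GENCODE vM21, a later annotation than the authors counted on, and promoters from RefSeq on GRCm38.p6. Some genes that the lists and the ranking hold are not reported here by name.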

Additional observations from a re-analysis of the deposited data

How the results depend on the processing

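Crym, Thrb, Slc16a10 and Thra kept their direction and their side of the threshold in all 15 alternatives. Slco1c1 kept its direction in all 15 and its call in 9, with log2 fold changes from -1.28 to -0.84, and Dio2 kept its direction in all 15 and its call in 8, from 0.81 to 1.65. The cause of these losses was not tested. The number of the 7 genes called was 3 to 4 without each library in turn, and the number of all genes called was 2267 to 4557, against 5 and 4036. The replicate block gave 3 of the 7 genes and 2618 genes in all. In it Slc3a2 (edgeR adjusted p = 0.0518), Dio2 (0.0653) and Slco1c1 (0.0651) lost their calls. Same-numbered deviations correlated at -0.175, -0.26 and -0.474. Deviations from a mean of only 3 libraries are tied to each other, so they cannot decide whether the numbers mark shared sources. Leaving out cochlea replicate 1 and vestibule replicate 3 together, chosen after seeing the data, gave 2469 genes. With library sizes alone the median over all genes rose from 0.0048 to 0.125 and 68.8% of calls were higher in the vestibule, against 57.6%; the log2 fold change of Slco1c1 was then -0.96 (adjusted p = 0.0542). The count over the 5 other lists was 9 to 16, against 12. Dio3 was tested only without the filter, and groups of 3 leave little room to test for outlier libraries. Depth limits Dio3, with 6 counts in all.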
